A study of Mus musculus with 2 samples.

Results

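Respiratory complex I passes electrons from NADH to ubiquinone in the inner mitochondrial membrane and pumps protons while doing so. It is L-shaped. The matrix arm oxidises NADH and carries the electrons along iron-sulfur clusters to the ubiquinone site, and the membrane arm pumps the protons. Core subunits hold the catalytic centres, accessory subunits surround them, and assembly factors help to build the enzyme and then leave it. In macrophages, oxidative metabolism is a known feature of the M2 state that IL-4 induces. The genes described here are those whose mouse symbol starts with Nduf, found through the RefSeq accession of their array probe and read from the brightest probe of each gene. There were 46 such genes among 20656 named genes on the array. They comprised 7 core subunits of the matrix arm, 9 accessory subunits of the matrix arm, 19 accessory subunits of the membrane arm, Ndufab1, which sits in both arms, 8 assembly factors named Ndufaf, and Ndufa4 and Ndufa4l2, which carry the name without being structural subunits of complex I. Ndufb1 was not matched by accession, and the membrane arm subunits encoded in mitochondrial DNA were not analysed here.

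BMDMs, macrophages grown from mouse bone marrow with M-CSF for 7 days, were compared without treatment and after IL-4 for 18 h. The label of the untreated sample also names 18 h. The methods of the study name male Crif1 f/f mice of 8 weeks as the source. Crif1 is floxed in such mice, and no Cre is named for the arrays, so the floxed allele is shared by both groups; the dose of IL-4 on the arrays is not given in the sources used here. Each condition had 1 single-colour (Cy3) Agilent array, so differences were not tested, and precision is limited by the number of arrays. Signal is the background-subtracted intensity in arbitrary units, and a gene counts as detected where the scanner software flags its probe as well above background. Differences are in log2 units, IL-4-treated minus untreated, after each array was scaled to its 75th percentile. The error beside a difference is the SD between spots of other probes of similar signal. It covers neither the spread between cultures nor an error shared by all spots of an array.

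IL-4 response genes followed the labels, with Arg1, an arginase, at an intensity of 84.95 without IL-4 and 19690 with it. All 5 macrophage markers found were detected on both arrays, among them Csf1r, the M-CSF receptor, and Adgre1, which encodes F4/80. Csf1r and Adgre1 had log2 differences of 0.09 and 0.17, while the integrin gene Itgam was at -0.71, the lysozyme gene Lyz2 at -0.70 and Cd14, a lipopolysaccharide co-receptor, at -1.42. Their summed intensity, to which Csf1r gave most after IL-4, was 292200 without and 271700 with IL-4. All 4 neutrophil markers found were detected too, with sums of 34670 and 34330, and so were all 3 fibroblast markers, with sums of 292200 and 284700 to which the collagen gene Col1a2 gave 233300 and 234300. Of the lymphocyte markers 1 of 4 was detected on each array (sums of all 4, 396.5 and 323.5), of the dendritic cell markers 1 of 3 (78.18 and 66.28) and of the eosinophil markers 2 of 3 (858.5 and 935.6). The part of other cells in the complex I values was not tested, and fewer cells of a type cannot be told apart from less RNA per cell.

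All 46 complex I genes were detected on both arrays. None of their probes was saturated or flagged as an outlier, and each was printed in 1 spot. Intensities lay between 152.5, for Ndufaf5 in untreated BMDMs, and 57114, for Ndufa13 after IL-4. With each array scaled to its 75th percentile, the differences were small and mostly above 0. The median log2 difference was 0.09, with an interquartile range from 0.04 to 0.16 and extremes of -0.13 and 0.48. Over all 12744 genes detected on both arrays the median was -0.01 and the interquartile range ran from -0.19 to 0.15, a width of 0.336 against 0.117 for the complex I genes. Dim genes spread more, and in the brightest quartile of all genes, which held 35 of the 46, the width was 0.261. Of the 46 genes, 36 lay above 0, or 78.3%, where 47.7% of all genes did. This count depends on the scaling, and it was 24 of 46 after quantile normalization and 46 of 46 with median scaling. The plot of single genes by role shows this narrow band.

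**Figure D1:**
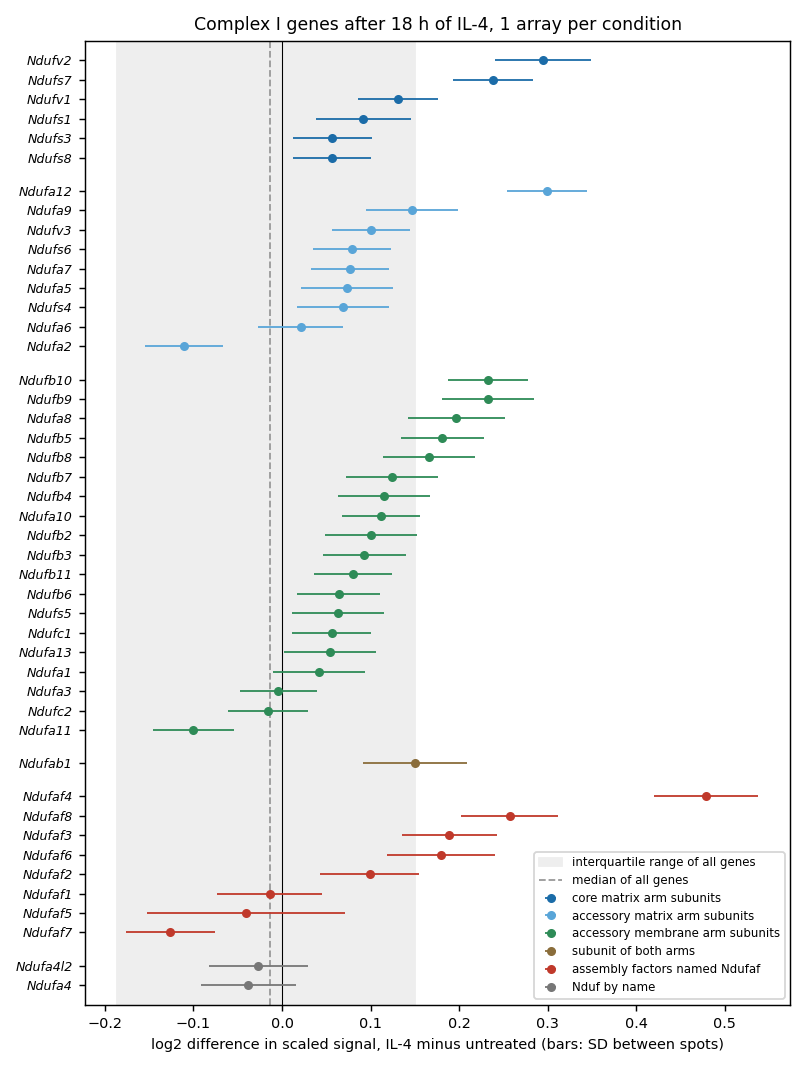
Log2 difference in scaled signal of the complex I genes, 1 of the 46 not shown (x axis, IL-4-treated minus untreated BMDMs, 1 array per condition), sorted within their roles; bars are the SD between spots, the grey band is the interquartile range of all genes (-0.19 to 0.15) and the dashed line their median (-0.01). Most genes lie between 0 and 0.3, and Ndufaf4 stands apart at 0.48.

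No complex I gene changed 2-fold in either direction, where 3.76% of all genes did, 2.31% upward and 1.44% downward. A log2 difference of at least 0.3, set as a small change, was reached by 1 of the 46 genes, or 2.17%, against 12.6% of all genes. That order turned round in other settings, with 23 of 46 against 33.6% of all genes with median scaling and 39 of 46 against 51.1% with spike-in scaling. No complex I gene was at -0.3 or lower, against 15.7% of all genes. All genes include dim ones, which spread more. Signal lay within the interquartile range of the complex I genes for 2498 genes, some complex I genes included. Of these 2498 genes, 195 were at -0.3 or lower and 358 at 0.3 or higher. Measured in spot error, 19 of the 46 genes, or 41.3%, were higher after IL-4 by more than 2 SD, where 27.4% of all genes were, and 4 genes, or 8.7%, were lower by more than 2 SD, where 28.5% of all genes were. The other 23 genes stayed within 2 SD of spot error. These counts hold for the scaling used here, and the shares of all genes were not matched for signal. After quantile normalization Ndufv1, for example, went from 0.131 to 0.026, with a spot SD of 0.045. Ndufa3 went from -0.004 to -0.105, with a spot SD of 0.044. With spike-in scaling the lowest of the 46 genes was at 0.19. The scanner software's own error was larger, at 10.0% to 10.9% of the intensity of these probes on each array. These counts do not use it. The plot of intensities on both arrays shows every gene close to the line of equal scaled signal.

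**Figure D2:**
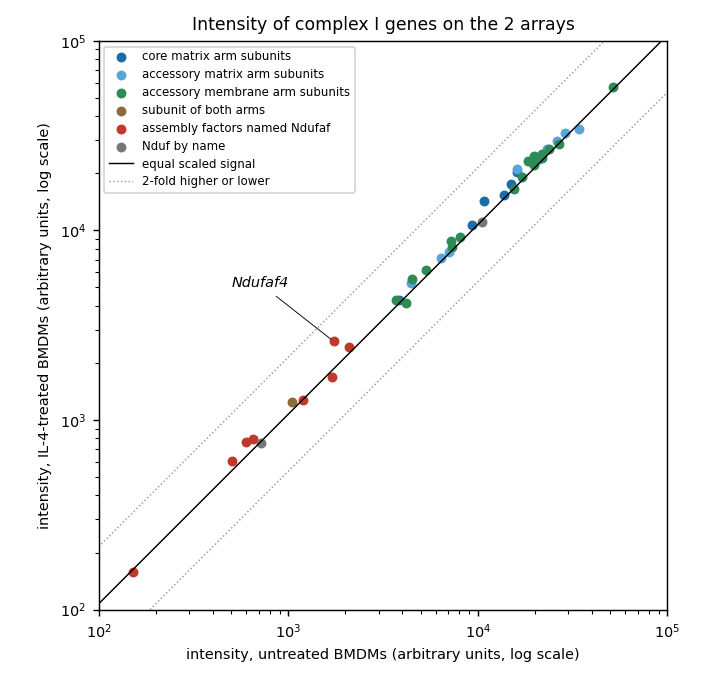
Background-subtracted intensity of the complex I genes, 1 of the 46 not shown, without IL-4 (x axis) and with IL-4 (y axis), both on log scales in arbitrary units and coloured by role; the solid line marks equal scaled signal and the dotted lines a 2-fold difference. All points lie between the dotted lines. Intensities of different probes do not order the genes by expression.

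Bright genes as a whole were slightly higher after IL-4, and complex I genes are bright. When the 12744 genes were divided by mean signal into quartiles of 3186 genes, the median log2 difference was -0.12 in the dimmest quartile, -0.04 and 0.02 in the next ones and 0.045 in the brightest, which held 35 of the 46 complex I genes. The 2476 other genes whose signal lay within the interquartile range of the complex I genes had a median of 0.05, and 59.8% of them lay above 0. Within the 46 genes the difference did not follow signal, with a Spearman correlation across genes of -0.03 on the same pair of arrays.

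Ndufaf4 had the largest difference of the 46 genes. It encodes an assembly factor that binds NDUFAF3 and acts on early intermediates of the matrix arm. Its brighter probe had an intensity of 1738 in untreated BMDMs and 2595 after IL-4, a log2 difference of 0.48 ± 0.06 (spot SD). Its dimmer probe, at 877.3 and 1320, gave 0.49. The probes therefore differed by 0.011. Ndufaf4 was the highest of the 46 genes in each of the 12 other settings tried. A single factor per array cannot change that order, and the processed values repeat the same differences, so those settings are no check of it. Quantile normalization, cyclic loess and normexp could have changed it, and Ndufaf4 was highest with each.

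The next genes were Ndufa12, an accessory subunit of the NADH-oxidising part, and Ndufv2, a core subunit that holds an iron-sulfur cluster. The intensity of Ndufa12 was 16017 and 21107, a log2 difference of 0.299 ± 0.045. Ndufv2 had 10815 and 14220, a difference of 0.295 ± 0.054. Both lie just under the limit of 0.3. Ndufaf8, which stabilises NDUFAF5, followed at 596.1 and 763.4, a difference of 0.257 ± 0.055, and Ndufs7, the core subunit with the terminal iron-sulfur cluster, at 16113 and 20364, a difference of 0.238 ± 0.045. These genes had more signal on the IL-4 array before and after scaling.

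Toward the other end stood Ndufaf7, an assembly factor with methyltransferase activity. Its intensity was 1709 in untreated BMDMs and 1677 after IL-4, a log2 difference of -0.13 ± 0.05. Ndufa2, an accessory subunit with a thioredoxin-like fold, had 34319 and 34057, a difference of -0.11 ± 0.04, and Ndufa11, an accessory subunit of the membrane arm, 4164 and 4163, a difference of -0.10 ± 0.05. For these genes the intensities on the arrays were nearly equal. The sign of their difference depends on the scaling, and it was positive with median or spike-in scaling. Equal intensity does not by itself mean no change, since the median of all genes was 0.09 without scaling. The next lowest was Ndufaf5, at -0.04 ± 0.11. Gaps between genes do not depend on a single scaling factor. Ndufaf4 lay 0.61 ± 0.077 above Ndufaf7, with both spot SDs combined, and between 0.52 and 0.61 over the settings tried. Ndufa12 lay 0.41 ± 0.063 above Ndufa2, with a range from 0.35 to 0.42.

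Promoter sequences of 3 genes from the upper and 2 from the lower end that have an entry and could be shown are printed to place the members at both ends beside each other. They come from RefSeq, build GRCm38.p6, and run 5′ to 3′ from 250 bases before to 30 bases after the gene start. Ndufaf4 lies at chr4:24897833-24898112 on the + strand, Ndufa12 at chr10:94198785-94199064 on the + strand, Ndufv2 at chr17:66101530-66101809 on the - strand, Ndufa11 at chr17:56717512-56717791 on the + strand and Ndufaf7 at chr17:78936885-78937164 on the + strand. Capitals mark matches to the letters searched, which were GCGCANGCG for NRF1, CGGAAG for the ETS family that includes GABPA, AAGATGGCG for YY1, and TTC and GAA with 4 bases of any kind between them for STAT6, the factor activated by IL-4. Both strands were searched, and the NRF1 matches here overlap on the strands.
Ndufaf4: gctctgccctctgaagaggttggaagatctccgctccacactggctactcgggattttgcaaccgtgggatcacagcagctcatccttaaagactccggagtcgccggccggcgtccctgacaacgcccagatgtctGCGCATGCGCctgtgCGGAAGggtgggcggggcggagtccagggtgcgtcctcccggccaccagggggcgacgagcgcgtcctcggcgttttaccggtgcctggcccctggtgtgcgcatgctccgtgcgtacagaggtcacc
Ndufa12: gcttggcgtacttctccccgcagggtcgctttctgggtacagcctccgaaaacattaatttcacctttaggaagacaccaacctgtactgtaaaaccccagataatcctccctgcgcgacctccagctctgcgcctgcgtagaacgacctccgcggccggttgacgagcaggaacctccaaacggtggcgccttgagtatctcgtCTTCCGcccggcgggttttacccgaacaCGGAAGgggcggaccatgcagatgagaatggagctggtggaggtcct
Ndufv2: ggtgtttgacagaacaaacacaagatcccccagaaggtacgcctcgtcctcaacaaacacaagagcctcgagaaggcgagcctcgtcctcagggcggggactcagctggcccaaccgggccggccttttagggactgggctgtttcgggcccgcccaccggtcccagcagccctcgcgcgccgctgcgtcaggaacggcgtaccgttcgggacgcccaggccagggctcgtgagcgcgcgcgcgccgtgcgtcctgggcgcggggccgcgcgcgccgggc
Ndufa11: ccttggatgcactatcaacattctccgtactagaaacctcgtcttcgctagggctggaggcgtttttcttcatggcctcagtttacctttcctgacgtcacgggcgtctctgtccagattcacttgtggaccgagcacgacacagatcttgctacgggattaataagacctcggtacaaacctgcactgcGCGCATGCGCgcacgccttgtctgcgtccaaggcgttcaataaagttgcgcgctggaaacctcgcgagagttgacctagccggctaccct
Ndufaf7: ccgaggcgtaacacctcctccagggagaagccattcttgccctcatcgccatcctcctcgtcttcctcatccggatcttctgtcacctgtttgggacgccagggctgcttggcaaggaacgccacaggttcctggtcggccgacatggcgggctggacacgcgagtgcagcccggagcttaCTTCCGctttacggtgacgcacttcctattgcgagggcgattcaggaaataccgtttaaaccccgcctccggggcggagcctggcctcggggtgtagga

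The letters for NRF1 stand in the promoters of both Ndufaf4 and Ndufa11, near opposite ends of the order, and the ETS letters in those of Ndufaf4, Ndufa12 and Ndufaf7. Ndufv2 held none of the 4 motifs. Promoters were found for 40 of the 46 genes and searched over 300 bases. NRF1 letters were in 10 of them, or 25%, against 7.03% of the 27025 genes with a promoter in the table, and YY1 letters in 6, or 15%, against 1.64%. ETS letters were in 14, or 35%, against 18.8%, and STAT6 letters in 3, or 7.5%, against 8.01%. The 3 genes with STAT6 letters were Ndufa9, Ndufaf1 and Ndufc1. Median log2 differences with and without a motif were 0.08 and 0.10 for NRF1, 0.10 and 0.09 for ETS, 0.11 and 0.09 for YY1, and 0.06 and 0.09 for STAT6. A match is a description of letters and not a site that was shown to be bound.

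The core subunits of the matrix arm named here are Ndufv2 and Ndufs7, given above, and Ndufv1, Ndufs1, Ndufs3 and Ndufs8. Ndufv1, which holds the flavin where NADH is oxidised, had intensities of 14923 and 17510 and a log2 difference of 0.13 ± 0.05. Ndufs1, the core subunit with several iron-sulfur clusters, had 9357 and 10683 and a difference of 0.09 ± 0.05, within 2 SD. Ndufs3, a core subunit beside the ubiquinone site, had 13727 and 15299, a difference of 0.06 ± 0.05. Ndufs8, which carries iron-sulfur clusters next to it, had 3836 and 4273, a difference of 0.06 ± 0.04. The core subunits named here all lay above 0, where 47.7% of all genes did. They spread up to 0.295 for Ndufv2, wider than spot error and without a common size. After quantile normalization Ndufs3 and Ndufs8 were below 0. The genes named here are not all of the core subunits, so this does not describe the whole role.

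Among the accessory subunits of the matrix arm, 8 of 9 lay above 0, with a median of 0.08. Over all genes 47.7% lay above 0, and 59.8% of the 2476 other genes of similar signal did. Ndufa9 is the accessory subunit near the ubiquinone site. The study blotted its protein in BMDMs with and without Crif1 deletion, which is not the IL-4 comparison made here. Its probe had an intensity of 4461 in untreated BMDMs and 5293 after IL-4, a log2 difference of 0.15 ± 0.05. Ndufa12 and Ndufa2 are given above. The other 6, which are Ndufv3, Ndufs4, Ndufs6, Ndufa5, Ndufa6 and Ndufa7, lay between 0.02 for Ndufa6 and 0.10 for Ndufv3. A second, dimmer probe of Ndufv3 went the other way, at -0.10 with an intensity of 559.6 and 559.7. After quantile normalization Ndufv3, Ndufs6, Ndufa5, Ndufa6 and Ndufa7 were below 0, and Ndufs4 was at 0.004.

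In the membrane arm 16 of 19 accessory subunits lay above 0, with a median of 0.093 and a range from -0.10 to 0.23. The share above 0 was 47.7% over all genes and 59.8% over the 2476 other genes of similar signal. Ndufb10, which has a twin cysteine fold facing the intermembrane space, had intensities of 18459 and 23244, a log2 difference of 0.233 ± 0.045. Ndufb9, a subunit of the LYR motif family, had 19694 and 24801, also 0.233, ± 0.052. Both exceeded spot error by more than 4-fold. Ndufa8, Ndufb5, Ndufb8, Ndufb7, Ndufb4 and Ndufa10 followed, from 0.20 down to 0.11, each by more than 2 SD. Ndufb2, Ndufb3, Ndufb11, Ndufb6, Ndufs5, Ndufc1, Ndufa13 and Ndufa1 lay between 0.10 and 0.04, all within 2 SD. After quantile normalization all of these but Ndufb2 and Ndufb3 were below 0. Ndufa3 and Ndufc2 were at 0 within error, with -0.004 and -0.02. Ndufab1, the mitochondrial acyl carrier protein, had 1052 and 1251, a difference of 0.15 ± 0.06.

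The assembly factors varied more among themselves than the subunits. The SD of the log2 difference was 0.193 over the 8 Ndufaf genes and 0.099 over the 36 subunits. Over the settings tried it stayed between 0.185 and 0.194 for the Ndufaf genes and between 0.095 and 0.103 for the subunits. A single factor per array cannot change these SDs, so settings of that kind were no check of them. The interquartile width, which depends less on a single gene such as Ndufaf4, was 0.227 for the Ndufaf genes and 0.092 for the subunits. Spot error was 0.050 to 0.112 for the Ndufaf genes and 0.044 to 0.059 for the subunits. The Ndufaf genes were also dimmer, with none of the 8 in the brightest quartile of all genes, 4 in the next, 3 in the one below and 1 in the dimmest. Over all genes the interquartile width rose along the same quartiles, from 0.261 through 0.296 and 0.32 to 0.473, and the part of signal in the spread of the assembly factors was not tested. Ndufaf3, the partner of NDUFAF4, had 651.1 and 795.1, a log2 difference of 0.19 ± 0.05, well below that of Ndufaf4. Ndufaf6, which is needed for the membrane part next to the matrix arm, had 502.4 and 609.8, a difference of 0.18 ± 0.06. Ndufaf2, the paralogue that NDUFA12 replaces late in assembly, had 2102 and 2412, a difference of 0.10 ± 0.06 that lies within 2 SD. Ndufaf1, which acts on membrane arm intermediates, was level, at 1201 and 1275 and a difference of -0.01 ± 0.06. Ndufaf5, which hydroxylates NDUFS7, was the dimmest gene, at 152.5 and 158.8, and its second probe was detected on neither array.

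Ndufa4, a subunit of complex IV despite its name, had 10581 and 11040, a log2 difference of -0.04 ± 0.05. Its paralogue Ndufa4l2, known as a hypoxia-induced gene, had 716.3 and 753.2, a difference of -0.03 ± 0.06. Neither moved beyond spot error.

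A second probe gives a check that spot error does not. Of 8 genes with 2 probes, 7 had both probes detected on both arrays, and in 5 of these both had the same sign. Those 5 were Ndufaf4, Ndufa5, Ndufb4, Ndufb5 and Ndufb6, with differences between the probes of at most 0.03. Ndufb5, for example, gave 0.181 at the brighter and 0.179 at the dimmer probe. Ndufb11 gave 0.08 at a probe with intensities of 23718 and 26870, and -0.19 at one with 189.4 and 177.5, and Ndufv3 is described above. In both, the dissenting probe was the far dimmer one. The remaining 38 genes had 1 probe. RefSeq also lists copies of Ndufa11, Ndufa12, Ndufab1, Ndufs5 and Ndufs6 as pseudogenes and Ndufb4b and Ndufb4c as further genes, so signal at these probes may be shared.

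Complex I genes were compared with other genes of the same chain, from lists of well-known members. The 38 genes of complexes II to V had a median log2 difference of 0.12, and 31 of them lay above 0, against 0.09 and 36 of 46 for complex I. Of all genes 47.7% lay above 0. By complex, the median was 0.15 for 4 genes of complex II, 0.18 for 9 of complex III, 0.07 for 10 of complex IV and 0.11 for 15 of complex V. The genes past 0.3 were Uqcr10 of complex III, at 0.304, and Atp5pb of complex V, at 0.36, and none of the 38 was at -0.3 or lower. The values of complex I lie among those of the other complexes, and with 1 array per condition the difference between them could not be tested. Assembly factors of complex I without an Nduf name had a median of 0.04 over 11 genes, of which 6 lay above 0, from -0.22 for Dmac2 to 0.24 for Tmem126b. None of the 11 reached 0.3 in size. Acad9 and Ecsit, which form an assembly complex with NDUFAF1 and TMEM126B, had 0.19 and 0.17.

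**Figure D3:**
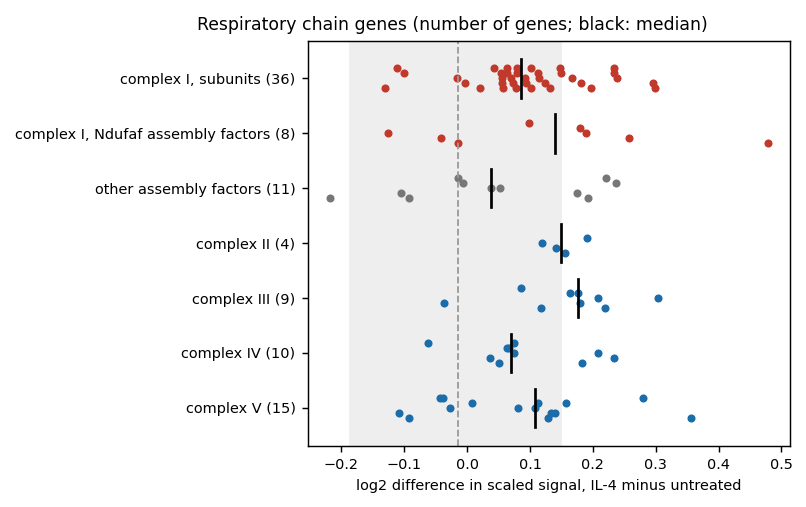
Log2 difference in scaled signal, IL-4-treated minus untreated BMDMs, of each gene of complex I (red, without Ndufa4 and Ndufa4l2), of its other assembly factors (grey) and of complexes II to V (blue), with the number of genes and a black line at the median; the grey band and dashed line are the interquartile range and median of all genes. Medians run from 0.04 for the other assembly factors to 0.18 for complex III, and no gene of these lists reached 2-fold.

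Regulators of mitochondrial biogenesis were read from the same arrays, and 6 of 8 were detected on both. Esrra, a nuclear receptor that activates respiratory genes, had 5666 and 7975, a log2 difference of 0.39 ± 0.05. Pprc1, a PGC-1-related coactivator, had 185.5 and 265.8, a difference of 0.42 ± 0.10. Nrf1, Yy1 and Tfam lay between 0.05 and 0.07, and Gabpa at -0.17. Ppargc1b, the coactivator PGC-1β, was detected after IL-4 only, with intensities of 12.33 without IL-4 and 57.53 with it. Its lower bound was 1.84-fold higher after IL-4, a log2 bound of 0.88. Spot error at this dim signal was 0.385, so the bound is not firm. Ppargc1a was detected on neither array.

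The direction of single genes depends on the scaling between arrays. A single factor per array cannot change the distance between the complex I median and that of all genes, but other settings changed it. The median of complex I genes was 0.30 with median scaling, 0.19 without scaling, 0.41 with scaling on spike-in controls and 0.0066 after quantile normalization. The median of all genes in the same settings was 0.20, 0.09, 0.31 and -0.015. The complex I median exceeded that of all genes by 0.10 with each single factor per array. The excess was 0.046 with cyclic loess and 0.022 with quantile normalization, which also adjust for signal, and 0.151 with normexp. With median scaling all 46 genes lay above 0, and 77.8% of all genes did, and after quantile normalization 24 of the 46 and 46.9% did. Of the 46 genes, 23 were above 0 in every setting and none was below 0 in every setting.

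**Figure D4:**
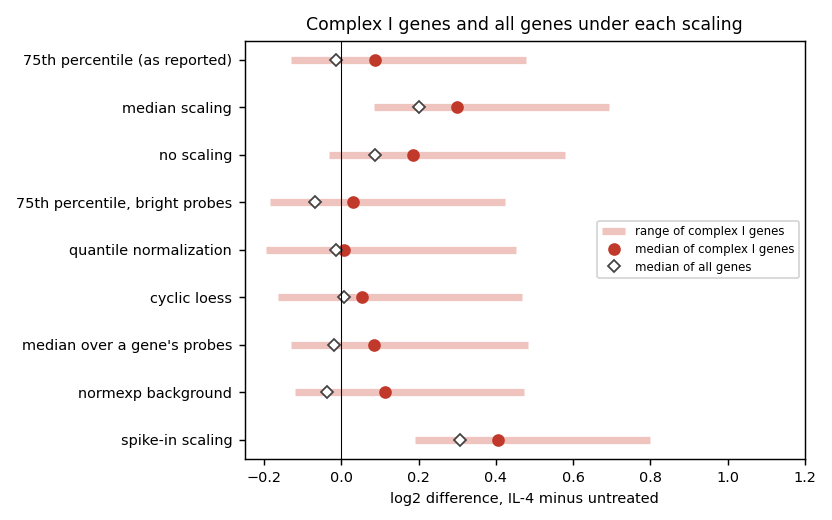
Median log2 difference (x axis, IL-4-treated minus untreated) of the complex I genes (red points), their range (pink bars) and the median of all genes (open diamonds) in 9 of the settings tried. The red point lies to the right of the diamond in each, by 0.022 with quantile normalization and by 0.151 with normexp.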

How the data were processed

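The members, gene lists and settings were chosen with earlier results of these data known. RNA of untreated and IL-4-treated BMDMs was hybridised to 1 array each, and the labels gave the conditions. Per the file headers, the deposited intensity of each spot comes from Feature Extraction 10.10.1.1, after background subtraction and detrending inside an array and with no scaling across arrays. A second deposited table holds the authors' log2 values, of unstated centring, with column medians of 0.16 and 0.02, whose differences equal the scanner differences within 0.000565 for the 46 genes. Control spots and outlier spots were left out, spots of 1 probe were averaged on the log2 scale, and each array was scaled to its 75th percentile, which was 9.84 untreated and 9.94 after IL-4. Of 39424 probes, 27229 were named through RefSeq accessions (GRCm38.p6, names only, since the array design uses mm9). A probe was detected where most of its spots carried the well-above-background flag, as 59.8% (untreated) and 57.4% (IL-4) of the gene spots did. A gene detected on 1 array only was given a lower bound, against the higher of its own dim signal and the lowest detected signal there. Spot error was taken from the 20 probes nearest in signal among 386 probes printed in several spots, as the median of their SDs between spots. The genes named by rule are the core subunits, the Ndufaf genes, Ndufa9, Ndufa4, Ndufa4l2, the 5 highest and 5 lowest, and those at 0.3 or more in size. The other members named, such as Ndufb10, Ndufb9 and Ndufab1, were chosen after their values were seen. Of the genes named by rule, 1 enters the counts and medians and is not reported by itself here. The code for scaling and counting was run on simulated arrays with a constant offset and known shifts well above 0.3, equally up and down. That run held no drift with signal and no shifts as small as the complex I median. It therefore does not bear on how the results depend on scaling. Alternatives were median, quantile, cyclic loess, spike-in and no scaling, the percentile over bright probes, other rules for several probes, normexp (offset 50) on the median pixel intensity, outlier spots kept, no filter on dim probes and the processed values. Software was limma 3.58.1 in R 4.3.3 and, in Python 3.11.15, pandas 2.3.3 with numpy 2.4.6 and matplotlib 3.10.9.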

Additional observations from a re-analysis of the deposited data

How the results depend on the processing

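Spike-in scaling, on 7 control probes, was chosen after seeing the data. The median log2 difference of the complex I genes, 0.086, was 0.3002 with median scaling, 0.1856 with none, 0.0311 with a percentile taken over detected probes, 0.0066 with quantile normalization and 0.4062 with spike-in scaling. It moved by less than 0.052, the median spot SD of single genes, with cyclic loess, normexp, the other rules for probes and spots and the authors' processed values. That is a loose limit for a median over 46 genes. The median was 0.0540 with cyclic loess and 0.1135 with normexp. The count of genes at 0.3 or more, 1 as reported, was 23 with median scaling, 7 without scaling, 2 with normexp and 39 with spike-in scaling, and 1 in the other settings. A single factor per array moves all genes alike by its construction; for normexp the cause was not tested. In all 12 settings no complex I gene changed 2-fold and none was at -0.3 or lower. Ndufaf4 stayed between 0.42 and 0.80. No paired analysis was possible because there was only 1 array for each condition, so the spread between cultures is unknown. All 46 genes were above background on both arrays, and Ndufaf5 was the dimmest.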
